A study of Mus musculus with 9 samples.

Results

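Transcripts of antibody genes and of genes used to recognise plasma cells were followed in the kidneys of wild-type and Trex1-/- mice. The group holds 9 genes taken by name from a list of antibody constant-region and plasma cell genes, out of 54532 gene identifiers counted in each library. They are the heavy-chain constant genes Igha, Ighm, Ighg2b and Ighg2c, the kappa light-chain constant gene Igkc, the joining chain gene Jchain, and the genes Mzb1, Pou2af1 and Sdc1. All 9 passed the filter on low counts, which kept 16646 genes.

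PolyA-selected RNA of whole kidney was sequenced in 9 libraries, 3 per group, all labelled C57BL/6J. WT mice were purchased at an age of 4 to 8 weeks and received no treatment. KO mice were Trex1-/- offspring of heterozygous parents, deleted for the exonuclease TREX1 in every cell, and were given the vehicle, labelled PBS, from an age of 1 month for 2 weeks. KO_SN011 mice were Trex1-/- mice of the same age given SN-011, an antagonist of the DNA-sensing adaptor STING, at 10 mg per kg daily into the peritoneum for 2 weeks. All mice were kept free of specific pathogens. Origin, treatment and genotype all differed between WT and both Trex1-/- groups and cannot be told apart, and the age of WT mice at collection is not given in the sources used here. The labels number the libraries within a group but do not say that each came from a separate animal, and p-values measure the spread between these libraries.

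An antibody is made of paired heavy and light chains, and each chain joins a variable part, encoded by 1 of many V segments, to a constant part. The constant gene of the heavy chain sets the class, so that Ighm gives IgM, Igha gives IgA, and Ighg2b and Ighg2c give subclasses of IgG. A B cell begins with IgM and IgD and can switch to another class. Plasma cells are the end stage of that lineage and fill much of their RNA with secreted heavy-chain, light-chain and J chain transcripts. J chain links IgA into dimers and IgM into pentamers, and the polymeric immunoglobulin receptor, encoded by Pigr, carries both across epithelia. Mzb1 encodes a chaperone of antibody assembly, Pou2af1 a coactivator that B cells use at octamer sites, and Sdc1 the proteoglycan syndecan-1 (CD138), which marks plasma cells but is also made by epithelia.

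The property that separates the 2 classes linked by J chain from IgG is a short tail at the end of the secreted heavy chain, whose cysteine, the last residue but 1, bonds to J chain. The last 54 coding bases of the secreted form are shown for the 4 heavy-chain members, read 5′ to 3′ from the GENCODE transcripts on the minus strand of GRCm38, with that cysteine codon in capitals where it is present. The intervals are chr12:113258771-113258824 for Igha, chr12:113420870-113420923 for Ighm, chr12:113306392-113306445 for Ighg2b and chr12:113287392-113287445 for Ighg2c.
Igha: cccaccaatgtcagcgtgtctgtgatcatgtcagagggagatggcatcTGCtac
Ighm: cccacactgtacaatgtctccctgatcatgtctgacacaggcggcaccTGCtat
Ighg2b: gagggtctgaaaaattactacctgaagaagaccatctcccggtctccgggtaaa
Ighg2c: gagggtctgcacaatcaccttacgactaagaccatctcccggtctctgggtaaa
Igha and Ighm were identical at 35 of these 54 positions (64.8%), and Ighg2b and Ighg2c at 43 (79.6%). Igha and Ighg2b shared 10 (18.5%).

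The 4 heavy-chain members lie on the minus strand of chromosome 12 in GRCm38, Igha at 113254830 to 113260236, Ighg2c at 113285325 to 113288932, Ighg2b at 113302965 to 113307933 and Ighm at 113418558 to 113422730. Igkc lies on chromosome 6 at 70726435 to 70726966, Jchain on chromosome 5 at 88519809 to 88527891, Mzb1 on chromosome 18 at 35647267 to 35649367, Pou2af1 on chromosome 9 at 51213708 to 51240080 and Sdc1 on chromosome 12 at 8771323 to 8793715. Counts cover the exons of these genes. No exon of a member except Mzb1 overlapped an exon of another gene, and no stretch of 150 bases in the transcripts of those 8 recurred in another gene. Of the exonic bases of Mzb1, 57.2% also belong to a second gene model on the same strand in the annotation used here, which makes its counts uncertain. The secreted coding sequences of Ighg2b and Ighg2c were 85.6% identical.

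The libraries held 16118813 to 21928965 counts each. Trex1 itself was at 0 counts in all 9 libraries, WT included, so its count does not check the genotype, and a count of 0 allows up to 3. Summed kidney markers (8 of 8 tested, 0 called, such as Umod and Slc34a1) were given in CPM, which are counts scaled to a common library size with TMM factors. They lay between 17363.1 and 19089.7 CPM in WT, 15772.2 and 16673.5 in KO and 16542.4 and 16904.9 in KO_SN011. Every Trex1-/- library was thus below every WT library. Sex was not labelled. Libraries were split at a sum of 1 CPM of Y-linked transcripts, which was passed in WT replicate 3, all 3 KO libraries and KO_SN011 replicate 2, at 153.3 to 187.6 CPM. The other four had at most 0.378 CPM of these and 434.5 to 502.7 CPM of Xist, against at most 0.453 CPM of Xist in the first kind, so WT and KO_SN011 each held more than 1 animal. The kinds are called libraries with Y-linked reads and libraries with Xist reads. All 3 KO libraries were of the first kind, and values within libraries of the same kind are given beside the comparisons.

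The comparison of KO with WT asks what differs between Trex1-/- and wild-type kidneys, where origin and treatment differed too and the sex-linked kinds were unbalanced. In KO kidneys the counts of Igha, Igkc and Jchain were about 4 times those in WT kidneys and those of Ighg2b about 5 times, over all exons of each gene, so the secreted and membrane forms of a heavy chain were not told apart. These sizes depended on the sex-linked kinds. With a Y-linked term in the fit, the log2 fold changes were 1.45 for Igha, 1.54 for Igkc, 1.45 for Jchain and 2.05 for Ighg2b. Within libraries with Y-linked reads, on 1 WT library, they were 1.54, 1.53, 1.63 and 1.59 in that order. Igha, Ighg2b, Igkc and Jchain rose, Ighg2c and Ighm were higher in every KO library without passing the test, and Mzb1, Pou2af1 and Sdc1 overlapped between the groups. Over all genes tested, 1.44% were called higher and 0.439% lower in this comparison by edgeR's quasi-likelihood test at an adjusted p under 0.05, against 4 of the 9 members higher and 0 lower. For 6 of the 9, every KO library lay above every WT library, as did 13.0% of all genes tested. The median log2 fold change was 1.90 over the members and 0.00284 over all genes. The members were listed with earlier results of these data known, so these shares and medians are a description only. Without WT replicate 1, or without any 1 of the KO libraries, 2 members were called.

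**Figure D1:**
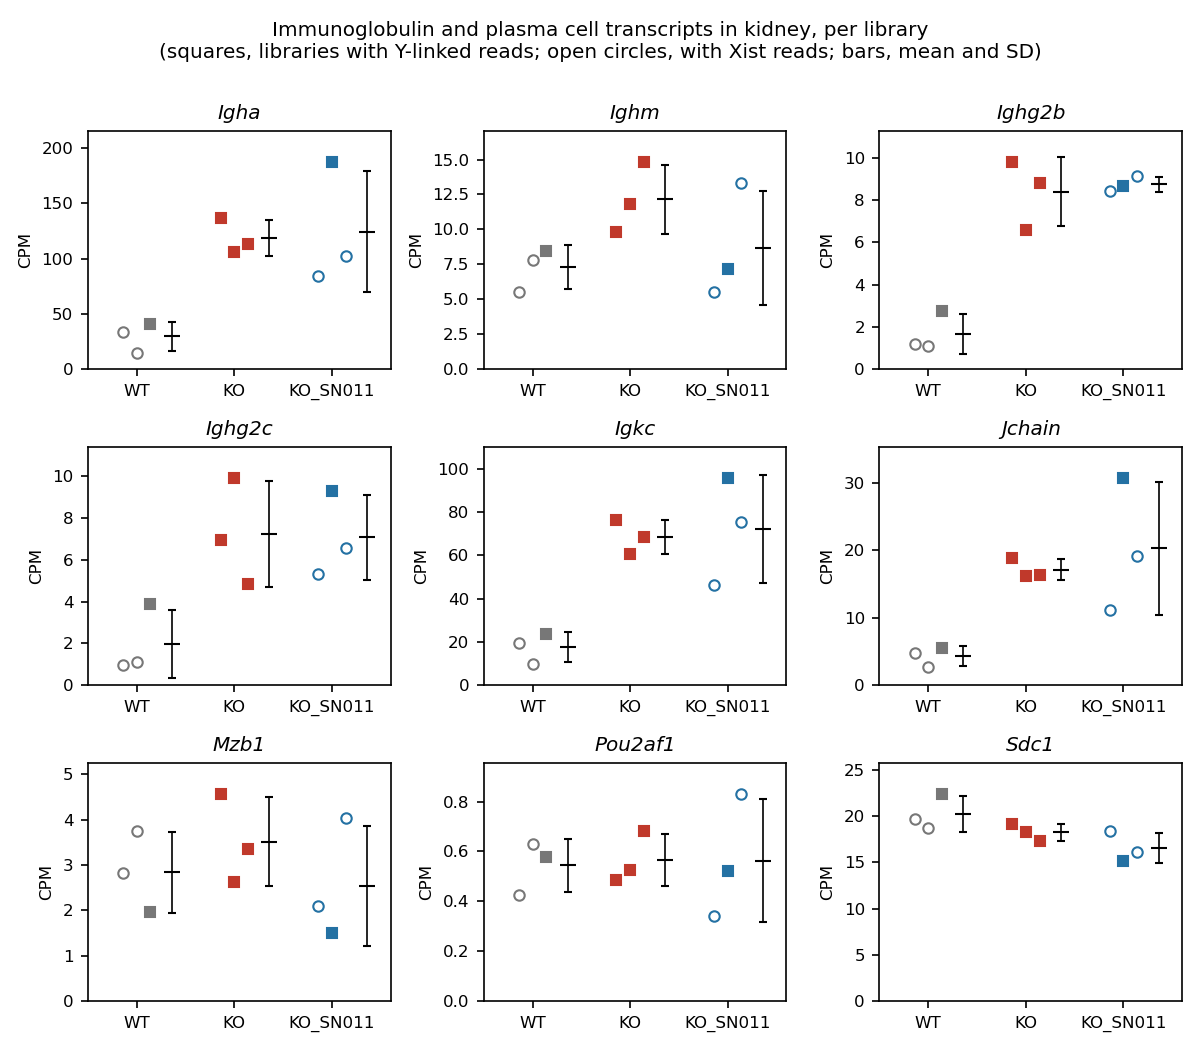
CPM of each of the 9 genes in each library (vertical axes from 0), with squares for libraries with Y-linked reads, open circles for libraries with Xist reads, and the group mean ± SD (n = 3) as a bar. Igha, Ighg2b, Ighg2c, Igkc and Jchain lie higher in all 6 Trex1-/- libraries than in the 3 WT libraries, while Mzb1 and Pou2af1 overlap between all groups.

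Igha, the constant gene of IgA, gave 33.3, 15.1 and 40.6 CPM in WT replicates 1 to 3, 137, 106 and 113 CPM in KO and 84.1, 187 and 102 CPM in KO_SN011. All 6 Trex1-/- libraries lay above all 3 WT libraries, and KO_SN011 replicate 2 was the highest of all. Igha was 4-fold higher in KO than in WT (log2 fold change 2.00, SE 0.365, adjusted p = 0.0202, edgeR's quasi-likelihood test) and 4.2-fold higher in KO_SN011 than in WT (2.07, SE 0.366, adjusted p = 0.0281). The call against WT was lost in KO in the fits without WT replicate 1 (adjusted p = 0.0801) and without any 1 of the 3 KO libraries (0.083, 0.0581 and 0.0694 for replicates 1 to 3), at log2 fold changes of 1.88 to 2.09. It was also lost with a replicate block (2.01, adjusted p = 0.0573) and within libraries with Y-linked reads (1.54, on 1 WT library). The call in KO_SN011 was lost without WT replicate 1 or 2 (0.101 and 0.0676), without any 1 KO library (0.0525 to 0.0606), with a replicate block (0.0587) and in the fit of only the 6 libraries compared (0.116).

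Ighg2b encodes the constant part of IgG2b. Its values were 1.18, 1.08 and 2.77 CPM in WT, 9.79, 6.59 and 8.82 CPM in KO and 8.43, 8.68 and 9.13 CPM in KO_SN011. The groups with and without TREX1 did not overlap, and the 3 KO_SN011 libraries were the closest to each other of any group. The rise was 5.09-fold in KO (log2 2.35, SE 0.319, adjusted p = 0.00353) and 5.30-fold in KO_SN011 (log2 2.41, SE 0.319, adjusted p = 0.00908). In KO against WT its call held in all 19 alternative fits, at log2 fold changes of 1.59 to 2.88. The lowest was within libraries with Y-linked reads, where WT has 1 library. With a Y-linked term it was 2.05 (adjusted p = 0.0123). Against WT, KO_SN011 lost the call in 2 fits, that without WT replicate 1 (adjusted p = 0.0533) and that of only the 6 libraries compared (0.0503).

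Ighg2c, the neighbouring gene, which C57BL/6 mice carry in place of Ighg2a, stood at 0.942, 1.13 and 3.87 CPM in WT, 6.93, 9.91 and 4.84 CPM in KO and 5.32, 9.32 and 6.58 CPM in KO_SN011. WT replicate 3 was more than 3 times the other WT libraries and just under the lowest KO library. The log2 fold change was 1.90 (SE 0.490, adjusted p = 0.0908) in KO and 1.87 (SE 0.489, adjusted p = 0.0919) in KO_SN011, so neither passed. Without WT replicate 3 both did, with log2 fold changes of 2.79 (adjusted p = 0.00519) and 2.76 (adjusted p = 0.0112). That fit leaves WT with no library with Y-linked reads, which all KO libraries have. KO also passed without KO_SN011 replicate 2 (adjusted p = 0.0473). Other tools called Ighg2c as the fifth member in both comparisons, with adjusted p = 0.00178 and 0.00276 in DESeq2 and 0.00957 and 0.014 in edgeR's exact test, as did the fit without a filter (0.00211 and 0.00359). With a Y-linked term in the quasi-likelihood fit, KO_SN011 passed (log2 2.01, adjusted p = 0.0103), while KO fell to 1.29 (0.182). Within libraries with Y-linked reads, on 1 WT library, KO was at 0.90. Of 19 alternative fits, 5 called Ighg2c in KO and 6 in KO_SN011.

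Ighm, the constant gene of IgM, which resting B cells and IgM plasma cells both transcribe, gave 5.51, 7.85 and 8.49 CPM in WT, 9.85, 11.8 and 14.8 CPM in KO and 5.55, 7.18 and 13.3 CPM in KO_SN011. KO lay above WT in every library, while KO_SN011 overlapped both. The log2 fold change against WT was 0.74 (SE 0.305, adjusted p = 0.288) in KO and 0.25 (SE 0.308, adjusted p = 0.716) in KO_SN011.

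Igkc encodes the constant part shared by all kappa light chains. It stood at 19.4, 9.83 and 23.7 CPM in WT, 76.4, 60.6 and 68.3 CPM in KO and 46.1, 95.7 and 75.4 CPM in KO_SN011. The pattern over libraries was that of Igha, with WT replicate 2 the lowest and KO_SN011 replicate 2 the highest. Igkc was 3.89-fold higher in KO (log2 1.96, SE 0.317, adjusted p = 0.0102) and 4.11-fold higher in KO_SN011 (log2 2.04, SE 0.318, adjusted p = 0.0176). The KO call held in 18 of 19 alternative fits, but not within libraries with Y-linked reads, where the value was 1.53 on 1 WT library. The KO_SN011 call was lost without WT replicate 1 (adjusted p = 0.0723) and in the fit of only the 6 libraries compared (0.0863).

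Jchain gave 4.80, 2.66 and 5.55 CPM in WT, 18.9, 16.2 and 16.3 CPM in KO and 11.1, 30.7 and 19.1 CPM in KO_SN011. Again no Trex1-/- library reached down to the WT range. Jchain rose 3.97-fold in KO (log2 1.99, SE 0.355, adjusted p = 0.0175) and 4.72-fold in KO_SN011 (log2 2.24, SE 0.355, adjusted p = 0.0185). The KO call was lost without WT replicate 1 or 2 (adjusted p = 0.0733 and 0.0808) and without any 1 KO library (0.076, 0.0593 and 0.0632 for replicates 1 to 3). It was also lost within libraries with Y-linked reads, where the log2 fold change was 1.63 on 1 WT library. The KO_SN011 call was lost without WT replicate 1 or 2 (0.0765 and 0.0763) and in the fit of only the 6 libraries compared (0.0946).

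No call was made for the 3 members that do not encode a part of the antibody. Mzb1 gave 2.82, 3.74 and 1.96 CPM in WT, 4.56, 2.62 and 3.35 CPM in KO and 2.09, 1.5 and 4.03 CPM in KO_SN011, and the 3 groups overlapped. Its log2 fold change was 0.29 in KO (95% interval -0.54 to 1.13, adjusted p = 0.761) and -0.17 in KO_SN011 (-1.02 to 0.68, adjusted p = 0.857). With a Y-linked term the KO value was 0.93 (adjusted p = 0.408) and within libraries with Y-linked reads 0.84 (0.5), so its size depended on how the sex-linked kinds were treated.

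Pou2af1 was near the limit of detection, with 6 to 14 counts per library and means of 0.544 ± 0.108 CPM in WT, 0.565 ± 0.104 CPM in KO and 0.563 ± 0.248 CPM in KO_SN011 (SD, n = 3). Its log2 fold change in KO was 0.05 with a 95% interval of -0.84 to 0.95, so at this depth differences within that interval remain compatible with the counts.

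Sdc1 stood at 19.7, 18.7 and 22.4 CPM in WT, 19.2, 18.3 and 17.3 CPM in KO and 18.4, 15.2 and 16.1 CPM in KO_SN011. Every KO_SN011 library lay below every WT library, as did 10% of all genes tested in that comparison, but the difference did not pass (log2 -0.29, SE 0.112, adjusted p = 0.212). In KO the value was -0.15 (95% interval -0.40 to 0.10, adjusted p = 0.566).

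**Figure D2:**
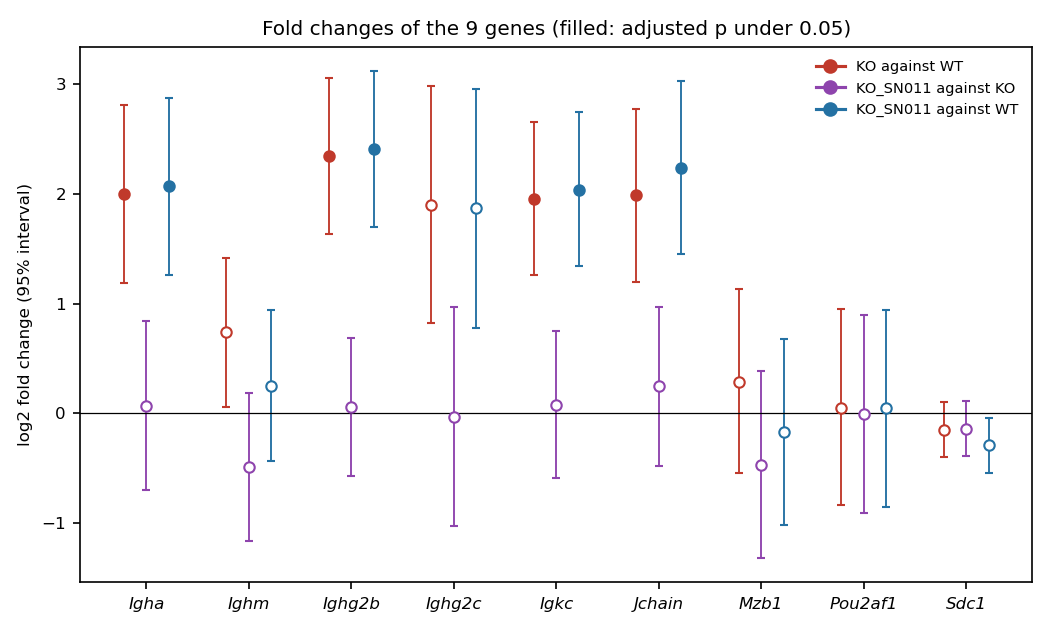
Fold changes on the log2 scale of the 9 genes in the 3 comparisons, with 95% intervals from the fit over all 9 libraries. Filled points have an adjusted p under 0.05, and all points for KO_SN011 against KO are open.

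The comparison of KO_SN011 with KO sets the STING antagonist beside the vehicle in Trex1-/- kidneys, with the sex-linked kinds again unbalanced. No member was called in either direction. Over all genes the edgeR quasi-likelihood test also called 0 of 16646 higher and 0 lower, so the background share was 0%, while 1905 genes had an unadjusted p under 0.05, the DESeq2 Wald test called 183 genes and the edgeR exact test 127. Without KO_SN011 replicate 2 the quasi-likelihood test called 519 genes, without KO_SN011 replicate 3 it called 22 and without KO replicate 2 it called 1, with no member among them. None of the 9 members had an unadjusted p under 0.05, and neither other tool called a member. No member separated the groups, where 7.72% of all genes lay higher and 8.42% lower in every treated library.

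The intervals show which differences remain compatible with these counts at 3 libraries a group. For Igha the log2 fold change was 0.07 with a 95% interval of -0.70 to 0.84, for Igkc 0.08 (-0.59 to 0.75), for Ighg2b 0.06 (-0.57 to 0.69) and for Jchain 0.25 (-0.48 to 0.97). Ighm was at -0.49 (-1.16 to 0.19), Mzb1 at -0.47 (-1.32 to 0.39), Ighg2c at -0.03 (-1.03 to 0.97), Sdc1 at -0.14 (-0.39 to 0.11) and Pou2af1 at -0.01 (-0.91 to 0.90). The sign of Igha, Igkc and Jchain rested on KO_SN011 replicate 2, without which the values were -0.35, -0.18 and -0.18, and that of Ighg2b on KO replicate 2, without which it was -0.08.

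Against WT, KO_SN011 had 4 of 9 members called higher and 0 lower, where 0.823% of all genes were higher and 0.457% lower. Non-overlap held for 5 members higher and 1 lower, against 11.8% and 10% of all genes. The median log2 fold change of the members was 1.87, beside -0.00337 over all genes, again as a description only. Both comparisons with WT use the same 3 WT libraries. No member was called in KO_SN011 against WT without WT replicate 1 or in the fit of only the 6 libraries compared, and 2 were without WT replicate 2.

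Libraries of the same sex-linked kind were also compared, in a fit with a mean for each group and kind, chosen after the data had been seen. WT has 1 library with Y-linked reads, replicate 3, which had the highest Igha, Ighm, Ighg2b, Ighg2c, Igkc and Jchain of the WT group and is assumed to vary like the others. Among libraries with Y-linked reads, KO against WT gave log2 fold changes of 1.54 for Igha, 1.59 for Ighg2b, 0.90 for Ighg2c, 1.53 for Igkc and 1.63 for Jchain. Each of these was smaller than in the fit over all 9 libraries, while Mzb1, at 0.84, was larger. Among libraries with Xist reads, KO_SN011 against WT gave 1.94 for Igha (adjusted p = 0.00431), 2.95 for Ighg2b (0.000237), 2.51 for Ighg2c (0.00406), 2.05 for Igkc (0.00402) and 2.02 for Jchain (0.00431), so that 5 members were called. In an interaction test of the KO_SN011 against WT difference between libraries with Y-linked and with Xist reads, no member passed, and Ighg2b was nearest, with the smaller difference where Y-linked reads were present (-1.31, SE 0.424, adjusted p = 0.25), a side that holds 1 WT and 1 KO_SN011 library. Among libraries with Y-linked reads, KO_SN011 replicate 2 against the 3 KO libraries gave values from -1.22 for Mzb1 (adjusted p = 0.268) to 0.84 for Jchain (0.196), where the lone KO_SN011 library is likewise assumed to vary like the others.

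The constant-region genes of antibodies, 13 by annotation, were summed as a pool. The sum was 62.4, 36.3 and 82.8 CPM in WT, 248, 200 and 214 CPM in KO and 154, 314 and 219 CPM in KO_SN011. The means were 60.5 ± 23.3, 221 ± 24.7 and 229 ± 80.6 CPM (SD, n = 3), 3.65 times as high in KO and 3.78 times in KO_SN011 as in WT. Spread was widest among the KO_SN011 libraries. In bulk tissue, more cells of a type and more RNA per cell cannot be told apart.

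Levels between genes were compared per kilobase of the secreted transcript, although the counts cover all exons. Igkc and Igha led, with 33.2 ± 13.3 and 27.0 ± 12.0 CPM per kb in WT and 129 ± 14.9 and 108 ± 14.9 in KO, and their ranges overlapped in each group. In WT, Ighm was next at 4.88 ± 1.05 CPM per kb, then Jchain at 3.11 ± 1.08, and Ighg2c and Ighg2b at 1.78 ± 1.48 and 1.51 ± 0.853, each overlapping its neighbour in range. In KO the order of the middle genes differed, with Jchain at 12.3 ± 1.11, Ighm at 8.14 ± 1.66, Ighg2b at 7.54 ± 1.47 and Ighg2c at 6.51 ± 2.29 CPM per kb, the last 3 with overlapping ranges. In KO_SN011, Igkc stood at 136 ± 46.8, Igha at 113 ± 50.1, Jchain at 14.6 ± 7.07, Ighg2b at 7.85 ± 0.317, Ighg2c at 6.37 ± 1.84 and Ighm at 5.82 ± 2.75, again with overlap between neighbours below Igha.

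Igha was the most abundant heavy chain in all 9 libraries. Its share of heavy-chain constant counts was 79.8%, 57.4% and 70.1% in WT, 81.3%, 77.3% and 79.1% in KO and 79.7%, 87.0% and 72.1% in KO_SN011. The Wilson 95% interval was widest in WT replicate 2, at 53.3% to 61.3% of 582 counts, and such intervals cover counting error only. The groups overlapped. The share of Ighm was 13.2%, 29.9% and 14.7% in WT, 5.85%, 8.66% and 10.4% in KO and 5.25%, 3.34% and 9.45% in KO_SN011, so each WT library had a larger Ighm share than each Trex1-/- library. Ighd, the gene of IgD, which is made by B cells that have not switched, held 1.52% ± 1.07 in WT, 0.285% ± 0.129 in KO and 0.204% ± 0.121 in KO_SN011 (SD, n = 3), on 3 to 16 counts per library. Its own level was 0.536 CPM in WT, 0.419 in KO and 0.27 in KO_SN011 on average, with overlap between WT and KO. Every KO_SN011 library lay below every WT library (0.34 CPM or less against 0.424 or more), as did 10% of all genes tested. The heavy-chain total that the Ighd share is taken of was larger in both Trex1-/- groups.

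**Figure D3:**
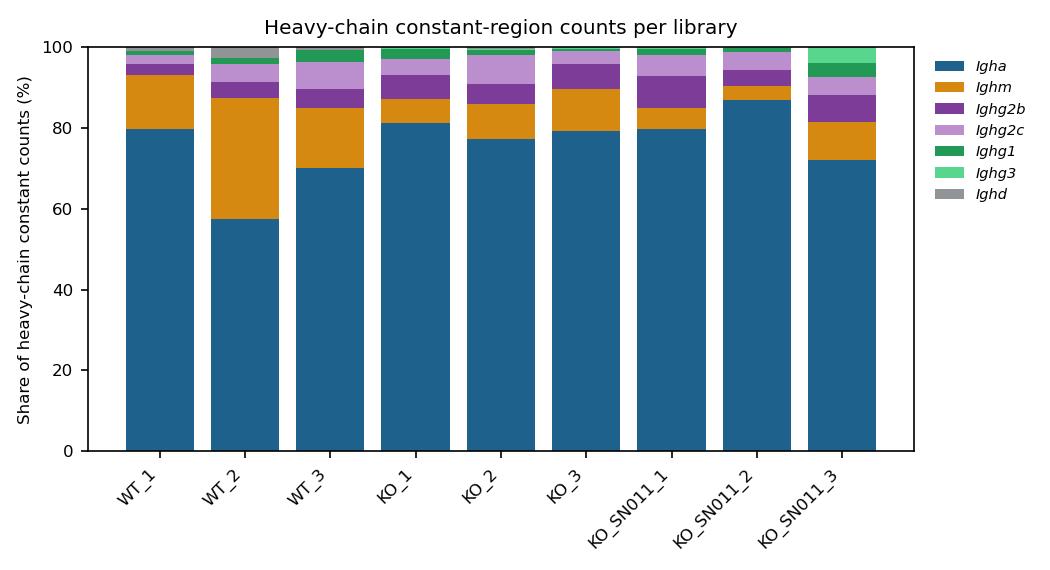
Share of each heavy-chain constant gene in the heavy-chain constant counts of each library, in percent, stacked to 100. Igha holds the largest part in all 9 libraries, Ighm takes a larger share in the 3 WT libraries than in the other libraries, and Ighg3 is visible in KO_SN011 replicate 3.

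IgG subclasses outside the members were rare. Ighg1 gave 0.819 CPM in WT, 2.23 in KO and 2.88 in KO_SN011 on average, with a log2 fold change in KO of 1.49 that did not pass (adjusted p = 0.375). Ighg3 had 90 counts in KO_SN011 replicate 3 and 0 to 8 in the other libraries, so that 3.78% of the heavy-chain counts of that library were Ighg3 (Wilson 95% interval 3.08% to 4.62%). Ighe, the gene of IgE, had 0 counts in every library, which allows up to 3 in each. Of the 8 constant genes outside the members, the list held all but Iglc4, and of those 7, 3 were tested and 0 were called in any comparison. Besides Ighg1 these were the lambda genes Iglc1, with 16, 2 and 7 counts in WT and 37, 38 and 28 in KO (log2 2.30, adjusted p = 0.121), and Iglc2, with 9, 2 and 5 in WT and 14, 6 and 27 in KO (1.82, adjusted p = 0.291). Their low WT counts mean that they passed the filter mainly through the Trex1-/- libraries, so their direction is not read as a result.

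Kappa dominated the light chains, with Igkc at 93.9% to 98.2% of light-chain constant counts over the 9 libraries. For each 100 counts of Igha there were 14.4, 17.7 and 13.7 of Jchain in WT, 13.8, 15.3 and 14.5 in KO and 13.2, 16.4 and 18.8 in KO_SN011. Jchain thus kept to a narrow range beside Igha while both differed severalfold between groups. Mzb1 did not: there were 14.5, 38.1 and 8.29 Mzb1 counts for each 100 of Igkc in WT, 5.97, 4.33 and 4.91 in KO and 4.54, 1.57 and 5.35 in KO_SN011.

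The V segments bear on how many rearranged chains made up the pool. Of 218 annotated V genes of the heavy and light chains, summed V counts were 13.7, 6.77 and 17.7 CPM in WT, 65.3, 49.7 and 54 CPM in KO and 39.0, 92.6 and 47.9 CPM in KO_SN011. The means were 4.43 times as high in KO and 4.70 times in KO_SN011 as in WT. Between 65 and 91 V genes had a count in WT, 112 to 142 in KO and 105 to 146 in KO_SN011. Thinned to 150 V counts a library, the expected number was 65.0 to 69.0 in WT, 62.6 to 77.5 in KO and 65.8 to 74.5 in KO_SN011, and the groups overlapped.

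**Figure D4:**
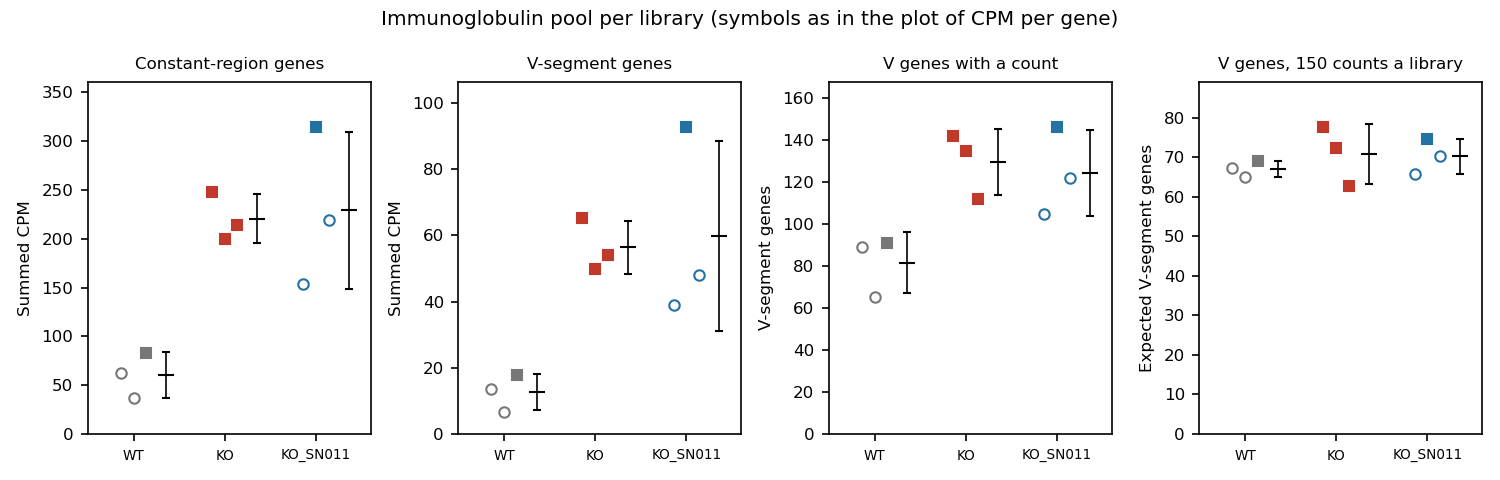
Summed CPM of the constant-region and V-segment genes, the number of V-segment genes with at least 1 count, and the number expected in 150 V counts, per library, with the mean ± SD (n = 3) and all vertical axes from 0. The groups without TREX1 lie higher in the 3 panels on the left, and the groups overlap in the panel of equal counts.

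The V segments among the leading 3 of any group by their mean share of V counts are shown by the last 60 bases of their germline transcripts in GENCODE on GRCm38, 5′ to 3′, with the codon of the conserved cysteine ahead of the third hypervariable loop in capitals. Igkv10-96 lies on the minus strand at chr6:68631963-68632442, Igkv1-135 on the plus strand at chr6:67609713-67610508, Igkv1-117 and Igkv1-110 on the plus strand at chr6:68121046-68121827 and chr6:68270485-68271267, and Ighv14-2 and Ighv1-26 on the minus strand at chr12:113994469-113994898 and chr12:114788372-114788805.
Igkv10-96: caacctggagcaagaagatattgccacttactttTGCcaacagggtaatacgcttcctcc
Igkv1-135: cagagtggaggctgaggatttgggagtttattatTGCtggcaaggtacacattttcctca
Igkv1-117: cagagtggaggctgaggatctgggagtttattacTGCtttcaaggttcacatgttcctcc
Igkv1-110: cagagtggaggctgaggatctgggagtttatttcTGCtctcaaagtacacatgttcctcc
Ighv14-2: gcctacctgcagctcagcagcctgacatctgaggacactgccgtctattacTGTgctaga
Ighv1-26: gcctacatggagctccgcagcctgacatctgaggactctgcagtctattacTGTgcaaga
Igkv1-110 and Igkv1-117 were 96.8% identical over their aligned transcripts, so reads may have been dropped or split between them and their counts are uncertain.

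The leading V gene took 3.59% to 7.56% of V counts in WT, 3.35% to 12.6% in KO and 4.06% to 6.06% in KO_SN011, and it differed between libraries. In KO replicate 3, Igkv1-135 had 110 counts, 12.6% of its V counts (Wilson 95% interval 10.6% to 15%), and Ighv14-2 had 76, or 8.74%. In the other two KO libraries Igkv1-135 had 29 and 38 counts and Ighv14-2 had 7 and 10. In KO_SN011 replicate 2 the leader was Igkv1-117 with 94 counts, or 5.88%, and in replicate 3 Igkv3-4 with 49, or 6.06%. By the mean share over libraries, the leading 3 were Igkv1-117 (4.84%), Igkv1-110 (3.47%) and Igkv10-96 (2.78%) in WT, Igkv1-135 (6.60%), Ighv14-2 (3.52%) and Igkv10-96 (3.40%) in KO, and Igkv1-117 (3.88%), Igkv10-96 (3.49%) and Ighv1-26 (3.27%) in KO_SN011.

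Of the 218 V genes, 28 passed the filter on low counts, most of them through the Trex1-/- libraries, so the filter itself favours higher values there and fold changes against WT are not read as a result. The 3 past the threshold in KO against WT are given by their counts alone, as a description. Igkv10-96 had 5, 7 and 6 counts in WT, 36, 30 and 29 in KO and 28, 35 and 34 in KO_SN011. The lambda segment Iglv1 had 9, 3 and 8 counts in WT and 23 to 36 in the Trex1-/- libraries. Igkv1-88 had 0 counts in all WT libraries, which allows up to 3 in each, 12, 20 and 21 in KO and 0, 6 and 3 in KO_SN011. No V gene was called in KO_SN011 against KO, where 11 of the 28 lay above 0.

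The rest of the B lineage was read from gene lists. Of 16 B cell genes 6 were tested, and 1 was called higher and 0 lower in KO against WT, with a median of 0.03. That gene was Cd74, the invariant chain of MHC class II, which macrophages and dendritic cells express as well, at 292 CPM in WT, 794 in KO and 626 in KO_SN011 (log2 1.44 in KO, adjusted p = 0.0113). Cd79a and Cd79b, signalling parts of the B cell receptor, were at 0.11 (adjusted p = 0.921) and -0.81 (adjusted p = 0.465). The other three tested were Cd37 at 0.70 (0.272), Cr2 at -0.52 (0.343) and Ebf1 at -0.06 (0.945). Among genes too low to be tested, Pax5, the factor that holds B cell identity, had 4, 6 and 5 counts in WT, 0, 1 and 0 in KO and 0, 0 and 1 in KO_SN011, and Ms4a1, the gene of CD20, had 4, 17 and 4, 0, 1 and 4, and 2, 2 and 4. The mean CPM of both was lower in each Trex1-/- group than in WT, on counts too few for a test. No gene of this list was called in KO_SN011 against KO or against WT.

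Of 14 plasma cell regulators and secretory genes, 13 were tested, and 0 were called higher and 1 lower in KO against WT, with a median of -0.30 and values from -1.08 to 0.34, of which 3 were above 0. Txndc5, a disulfide isomerase of the endoplasmic reticulum that is active in many secreting cells, fell by 0.49 on the log2 scale in KO (adjusted p = 0.0137) and by 0.45 in KO_SN011 (adjusted p = 0.0322). Prdm1, the gene of the plasma cell regulator Blimp-1, was at -0.67 (adjusted p = 0.359), its partner Irf4 at -1.08 (0.415) and Xbp1, the factor of the secretory programme, at -0.49 (0.0923). In KO_SN011 against KO these were at 1.19 for Prdm1 (adjusted p = 0.25), 0.69 for Irf4 (0.703) and 0.67 for Xbp1 (0.172), and against WT at 0.52 (0.411), -0.39 (0.759) and 0.18 (0.488), and none passed. Every KO_SN011 library lay above every KO library for 3 of the 13 genes, Prdm1, Xbp1 and Creld2, and below for 0, against 7.72% and 8.42% of all genes. For Xbp1, Txndc5, Fkbp11 and Hsp90b1, every KO library lay below every WT library, as did 12.3% of all genes. No tested gene of the list lay higher in every KO library than in every WT library. The genes above 0 in KO against WT were Cd38 at 0.34 (0.404), Tnfrsf13b at 0.22 (0.867) and Edem1 at 0.18 (0.747). In KO_SN011 the list had 1 gene called lower against WT, median -0.04, and 0 called against KO, median 0.23. Summed CPM of the markers Jchain, Mzb1, Tnfrsf17, Prdm1 and Derl3 was 10.6 to 13.5 in WT, 22.1 to 27.1 in KO and 18.4 to 38.2 in KO_SN011, and in the Trex1-/- libraries Jchain alone made up most of it. Tnfrsf17, the receptor BCMA of plasma cells, averaged 0.0728 CPM in WT and 0.123 CPM in KO, too few reads to be tested.

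**Figure D5:**
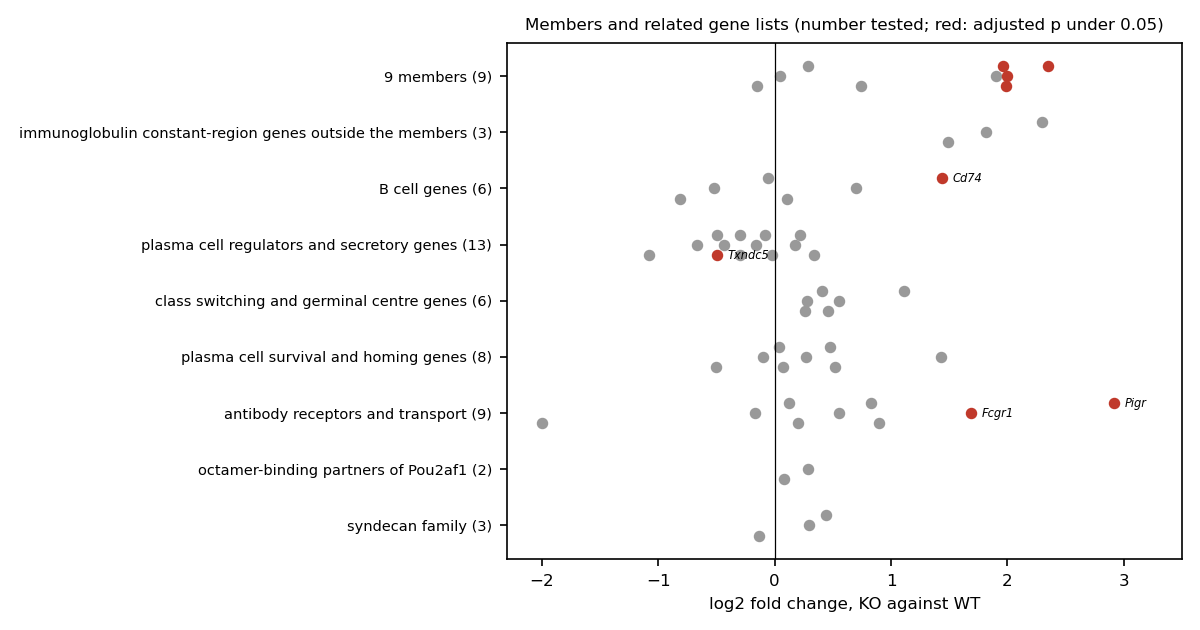
Log2 fold change in KO against WT of the tested genes among the 9 members and in 8 related lists, with points shifted vertically only to separate them. Red points have an adjusted p under 0.05, and outside the members these are Cd74, Txndc5, Fcgr1 and Pigr.

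Among genes that receive and carry antibody, Pigr and Fcgr1 rose in KO and the other seven tested did not pass. Of 10 antibody receptors and transporters 9 were tested, and 2 were called higher and 0 lower in KO, with a median of 0.55. Pigr, which exports polymeric IgA and IgM across epithelia, was at 41.6, 62.0 and 62.2 CPM in WT, 424, 427 and 403 CPM in KO and 236, 443 and 147 CPM in KO_SN011. All Trex1-/- libraries were above WT, and the KO_SN011 libraries were spread over a wide range. Pigr rose 7.56-fold in KO (log2 2.92, SE 0.344, adjusted p = 0.00141) and 4.99-fold in KO_SN011 (adjusted p = 0.0119), and the difference between KO_SN011 and KO was -0.60 (95% interval -1.31 to 0.11, adjusted p = 0.507). Fcgr1, the high-affinity IgG receptor of macrophages, rose by 1.69 on the log2 scale in KO (adjusted p = 0.00721) and did not pass in KO_SN011 against WT (0.0904), with means of 1.77 CPM in WT, 5.70 in KO and 3.56 in KO_SN011. Against WT, KO_SN011 had Pigr as the 1 gene of the list called, median 0.20, and none against KO, median -0.18.

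The other lists had no calls in any comparison. Of 10 class switching and germinal centre genes 6 were tested, all 6 above 0 in KO against WT with a median of 0.43. The 2 with the highest levels were Bcl6 (0.46, adjusted p = 0.42), the repressor of germinal centre B cells, and S1pr2 (0.28, adjusted p = 0.573). In KO_SN011 against WT, Bcl6 was at 1.14 (adjusted p = 0.0608), with 39.2 to 82.7 CPM against 22.6 to 28.9 CPM and no overlap (11.8% of all genes lay higher in this way), and S1pr2 at -0.29 (0.537). Of 15 identifiers of plasma cell survival and homing genes 8 were tested, with a median of 0.17 in KO. The 2 with the highest levels were Cxcl12, a chemokine that retains plasma cells in bone marrow, at 0.04 (adjusted p = 0.953), and Ccl28, which attracts IgA plasma cells to mucosa, at 0.07 (adjusted p = 0.976). The octamer-binding partners of Pou2af1, Pou2f1 and Pou2f2, were at 0.08 and 0.29 (adjusted p = 0.797 and 0.729). Of the other syndecans, Sdc2 was at 0.44 (0.569), Sdc3 at 0.30 (0.271) and Sdc4 at -0.13 (0.599).

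Markers of other cells are given beside the antibody transcripts, and their part in the results was not tested. Genes were called among the T cell, macrophage and red cell markers. T cell markers (6 of 6 tested, 2 called higher in KO) summed to 5.98 to 8.44 CPM in WT, 15 to 25 in KO and 7.75 to 17.8 in KO_SN011. Macrophage markers (5 of 5, 2 higher) summed to 131 to 145 CPM in WT, 198 to 217 in KO and 122 to 182 in KO_SN011. Neutrophil markers (3 of 4 tested, 0 called) summed to 0.586 to 3.93 CPM in WT, 2.57 to 7.05 in KO and 3.51 to 8.59 in KO_SN011, and NK cell markers (2 of 4 tested, 0 called) to 1.85 to 2.54, 4.26 to 6.08 and 1.02 to 4.74. Haemoglobin and the other red cell markers (5 of 5) summed to 539 to 1740.6 CPM in WT, 306 to 655 in KO and 94.3 to 224 in KO_SN011, with 2 called lower in KO_SN011 against WT. Adipocyte markers (3 of 4 tested, 0 called) summed to 20.6 to 80.3 CPM in WT, 10 to 34.0 in KO and 9.20 to 34.6 in KO_SN011. Lymphoid stroma markers summed to at most 2.77 CPM and plasmacytoid dendritic cell markers to at most 0.525 CPM in any library. Epithelial markers (5 of 5 tested, 0 called), of the cells that also make Sdc1, summed to 1835.9 to 2113.8, 1760.5 to 1856.8 and 1826.5 to 1957.9 CPM. Adrenal cortex markers summed to 5.37 to 8.10, 4.59 to 7.12 and 4.80 to 6.34 CPM.

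Over the 9 libraries some pairs of members tracked each other closely and other pairs did not. Pearson's r of log2 CPM was 0.993 between Igkc and Jchain, 0.991 between Igha and Igkc, 0.988 between Igha and Jchain and 0.936 between Igha and Ighg2b. It was 0.371 between Igha and Ighm, -0.166 between Igha and Mzb1, and -0.581 between Igha and Sdc1. Between Ighm and Pou2af1, the latter near the limit of detection, it was 0.785. Each r is a description over 9 points that share the groups, the libraries and the sex-linked kinds. Outside the antibody genes, the genes most like Jchain among 14824 with at least 1 CPM included Rad21 (0.98), a subunit of cohesin, Igf2bp2 (0.975), an RNA-binding protein, Snx10 (0.974), a sorting nexin, and Serpina3g (0.958), a protease inhibitor. For Igkc they included Rad21 (0.964), Snx10 (0.960) and Serpina3g (0.954), beside Jchain (0.993). Pigr was at rank 177 for Jchain, with r = 0.871.

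The octamer motif ATGCAAAT, on which Pou2af1 acts with its partners, was looked for on both strands of RefSeq promoters on GRCm38.p6, from 250 bases ahead of a gene's start to 50 bases after it. Promoters were matched for 3 of the 9 members, Jchain, Pou2af1 and Sdc1, and none of these windows held it, while 1.75% of 32544 promoters did. Its core TGCAAAT, which lies within the octamer, was found once, in the window of Pou2af1, and in 4.04% of all promoters. The interferon regulatory factor element was in none of the 3 windows and in 3.45% of all promoters. A match or its absence in such a window says nothing of binding.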

How the data were processed

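Kidney RNA was measured in 9 mouse libraries by paired-end RNA-seq after polyA selection. Per the labels and the study's methods, the authors trimmed reads with Trimmomatic, aligned them to mm10 with HISAT2 and counted uniquely mapped pairs per Ensembl gene with featureCounts. The deposited values are raw counts. Versions, annotation and strand setting are not given in the sources used here. At its default, featureCounts drops a pair that overlaps exons of 2 genes, so pairs that span a V segment and a constant gene may have been lost, which was not measured here. Of 54532 identifiers, 54495 matched GENCODE vM21, which gave symbols and positions.

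Counts were tested in R 4.3.3 with edgeR 4.0.16, with filterByExpr (10 counts, 15 in total), TMM scaling, 1 mean per group over all 9 libraries and the quasi-likelihood F test, with Benjamini-Hochberg adjustment over 16646 genes and a threshold of 0.05. SE and intervals were derived from the F statistic. Alternatives used DESeq2 1.42.0, edgeR's exact test, other scaling and filters, 6 libraries, a Y-linked term, a replicate block and leaving out each library. The script was tested on simulated counts. Log2 CPM for correlations used a prior count of 2. The members, lists and tests were chosen with earlier results of these data known. Named genes were the 9 members, each list's called genes or else its 2 with the highest CPM, the 3 leading V segments a group and the 5 genes most like Jchain and Igkc. Cd79a, Cd79b, Cd37, Cr2, Ebf1, Pax5, Ms4a1, Cd38, Tnfrsf13b, Edem1, Creld2, Fkbp11, Hsp90b1, Prdm1, Irf4, Xbp1, Tnfrsf17, Ighg3, Ighe, Ighd, Iglc2, Igkv3-4, Iglv1, Igkv1-88 and Sdc3 were named beside these after their values were seen. Some items these rules name are not reported here.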

Additional observations from a re-analysis of the deposited data

How the results depend on the processing

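In KO against WT, 4 members were called, with 5 by the DESeq2 Wald test, the edgeR exact test or without a filter, 4 under both other scalings, 3 with a replicate block, 1 within libraries with Y-linked reads, and 2 to 5 when 1 library was left out. In KO_SN011 against WT, 4 members were called, but 0 in a fit of only the 6 libraries compared, 3 with the block, and 0 to 5 when 1 library was left out. In KO_SN011 against KO, 0 members were called in every fit. All genes called in KO against WT numbered 313, and 707 without a filter, 726 by the Wald test, 683 by the exact test, 751 in 6 libraries, 198 with a Y-linked term and 153 to 774 without 1 library. In KO_SN011 against KO they numbered 0, and 127, 183 and 127 without a filter, by the Wald test and by the exact test, 82 within libraries with Y-linked reads and 0 to 519 without 1 library. In KO_SN011 against WT they numbered 213, and 607, 806 and 601 in those 3 settings, 43 in 6 libraries, 656 with a Y-linked term, 582 within libraries with Xist reads and 38 to 376 without 1 library. The cause of these shifts was not tested. Same-numbered libraries correlated at -0.294 to 0.242 in their deviations from the group means, and 4 of 9 correlated best with their own number, so the numbers were not taken to pair libraries. The block moved all genes called to 312, 0 and 231. It ended the call of Igha in KO (adjusted p = 0.0573) and in KO_SN011 (0.0587) against WT and of no other member. No called member changed direction. Among uncalled values, Ighg2c in KO_SN011 against KO turned to 0.72 with a Y-linked term and 0.36 within libraries with Y-linked reads, Pou2af1 turned to 0.00055 by the Wald test there and to -0.035 in KO against WT within libraries with Y-linked reads. Leaving out 1 library gave, in KO_SN011 against KO, -0.35 to 0.29 for Igha, -0.082 to 0.19 for Ighg2b, -0.29 to 0.27 for Ighg2c, -0.18 to 0.32 for Igkc, -0.18 to 0.54 for Jchain and -0.38 to 0.26 for Pou2af1. In KO_SN011 against WT it gave -0.19 to 0.50 for Ighm, -0.67 to 0.087 for Mzb1 and -0.34 to 0.31 for Pou2af1, and in KO against WT -0.11 to 0.18 for Pou2af1. With 3 libraries a group and 6 to 14 counts of Pou2af1, only large differences could be seen.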
